A study of Homo sapiens and Mus musculus with 16 samples.

Results

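Promoter regions that appeared in only 1 of the 2 KPC region lists were examined in both directions. ATAC-seq measures where chromatin is open enough for a transposase to insert, and the deposited data give, for each group, a list of open regions in BED format with a score. A region counted as a promoter region when it lay within 1 kb of a transcription start site in GENCODE vM21, and as mets-only or tumor-only when not 1 bp of it overlapped a region of the other list. There were 3189 such regions, 2087 mets-only and 1102 tumor-only, out of 148917 regions in both KPC lists and 364071 in the whole series. These regions were selected on the calls themselves (presence in 1 list and absence of overlap in the other), so their number, score and width are descriptions without a test.

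The series held 16 ATAC-seq samples in 4 groups of 4 replicates, of which the 2 mouse groups are used here. Both are cultured lines of pancreatic adenocarcinoma cells, labelled WT and untreated, grown in DMEM with serum. The "KPC tumour" group is a cell line from a primary tumor, and the "KPC Liver mets" group is a cell line from a liver metastasis, which the study describes as matched and isogenic. KPC is a genetically engineered mouse model of pancreatic cancer, in which a pancreas-expressed Cre recombinase switches on the driver alleles, and both lines come from it. Each group is a single line, so the lists compare these 2 lines, not metastases with primary tumors in general. Each group is represented by 1 list, so no spread between replicates can be given. Percentages carry Wilson 95% intervals, which cover counting error only.

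A promoter is the stretch of DNA around a transcription start site where the transcription machinery assembles. Many mammalian promoters, above all those of genes used in every cell, lie in CpG islands and are open in most cell types. Promoters poor in CpG more often belong to genes with restricted expression, and many genes have several start sites that are used in different cell types. A gene can therefore have a promoter that is open in 1 line while another of its promoters is open in both.

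To show what these regions look like, the 150 bp nearest the region center that overlap no annotated exon are given for the highest-scoring mets-only region of 3 kinds: at a protein-coding gene with no shared promoter region (Adra1b), at a protein-coding gene that has another, shared promoter region (Dclk1), and at a lncRNA gene (Gm47194). Capitals mark exact matches, on either strand, to the searched motif letters, here TGAGTCA of AP-1 and CCAAT of NF-Y. All are from mm10 and read 5′ to 3′ on the strand of the gene.
Adra1b, chr11:43901409-43901558, minus strand: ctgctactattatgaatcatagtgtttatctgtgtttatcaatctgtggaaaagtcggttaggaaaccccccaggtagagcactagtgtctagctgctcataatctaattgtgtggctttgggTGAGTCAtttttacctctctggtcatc
Dclk1, chr3:55461578-55461727, plus strand: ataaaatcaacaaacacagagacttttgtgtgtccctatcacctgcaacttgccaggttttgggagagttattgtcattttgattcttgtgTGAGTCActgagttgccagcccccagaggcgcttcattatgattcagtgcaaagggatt
Gm47194, chr13:64685370-64685519, minus strand: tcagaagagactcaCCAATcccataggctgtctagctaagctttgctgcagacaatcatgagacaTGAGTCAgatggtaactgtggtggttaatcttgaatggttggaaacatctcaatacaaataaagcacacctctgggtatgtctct
The AP-1 letters occurred in all 3, which does not stand for the direction. In the central 200 bp they were in 16.7% of all mets-only and 13.8% of all tumor-only promoter regions. The Adra1b stretch had a GC content of 41.3% with 1 CpG, and that of Dclk1 had 43.3% with 1 CpG. The Dclk1 stretch lies at the edge of its region. The 200 bp at the center of that region had a GC content of 56.5% and no letters of the motifs searched.

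The matching tumor-only regions were those of Zpld1, Add3 and Gm29229, shown as above.
Zpld1, chr16:55298624-55298773, minus strand: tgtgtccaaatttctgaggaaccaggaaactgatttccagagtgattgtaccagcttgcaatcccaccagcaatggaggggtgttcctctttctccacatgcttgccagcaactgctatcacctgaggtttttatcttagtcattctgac
Add3, chr19:53194376-53194525, plus strand: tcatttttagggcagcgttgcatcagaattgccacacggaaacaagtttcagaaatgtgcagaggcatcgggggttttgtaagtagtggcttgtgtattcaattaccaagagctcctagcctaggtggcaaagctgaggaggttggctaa
Gm29229, chr2:161513375-161513524, minus strand: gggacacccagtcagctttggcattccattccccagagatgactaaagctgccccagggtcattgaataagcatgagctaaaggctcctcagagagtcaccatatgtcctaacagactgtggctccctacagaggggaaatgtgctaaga
None of these 3 stretches held letters of any of the 13 motifs searched. The Add3 stretch held 3 CpG, and the other two held 0. The window at the center of the Zpld1 region was repeat-masked over its whole length.

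Mets-only promoter regions were 9.80% (9.41 to 10.2) of the 21301 promoter regions in the liver mets list. Tumor-only promoter regions were 5.80% (5.48 to 6.14) of the 18990 in the primary tumor list. Over the whole lists, promoters and all else, 20.2% of liver mets regions and 8.51% of primary tumor regions had no overlap in the other list, so promoter regions were found in only 1 list less often than the lists at large. The lists differ in length, with 80843 regions in liver mets and 68074 in primary tumor. They cover nearly the same amount of sequence, 40.3 and 40.8 Mb, because primary tumor regions are wider, with a median of 516 bp against 409 bp. When the liver mets list was shortened to its 68074 strongest regions, the order of the shares turned over: 5.74% of liver mets promoter regions and 12.4% of primary tumor promoter regions then had no overlap. Which line has more promoters of its own therefore depends on where each list ends. Sequencing depth is unknown for both lists. For a region found in 1 list, a larger share of cells with open chromatin, a DNA copy number difference and a difference in depth or calling cannot be told apart.

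The regions were mostly weak. The deposited score is on a scale that is not stated, so it is given as a percentile of its own list. Mets-only promoter regions had a median percentile of 15.9, against 64.5 for shared promoter regions of that list, and tumor-only promoter regions had 7.69, against 63.3. They were also narrow, with a median width of 270 bp against 637 bp for shared regions in liver mets, and 287 bp against 813 bp in primary tumor. Of the mets-only regions, 162 (7.76%) scored above the middle of their list. Of the tumor-only regions, 15 (1.36%) did, and 57.2% were in the lowest score decile.

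**Figure D1:**
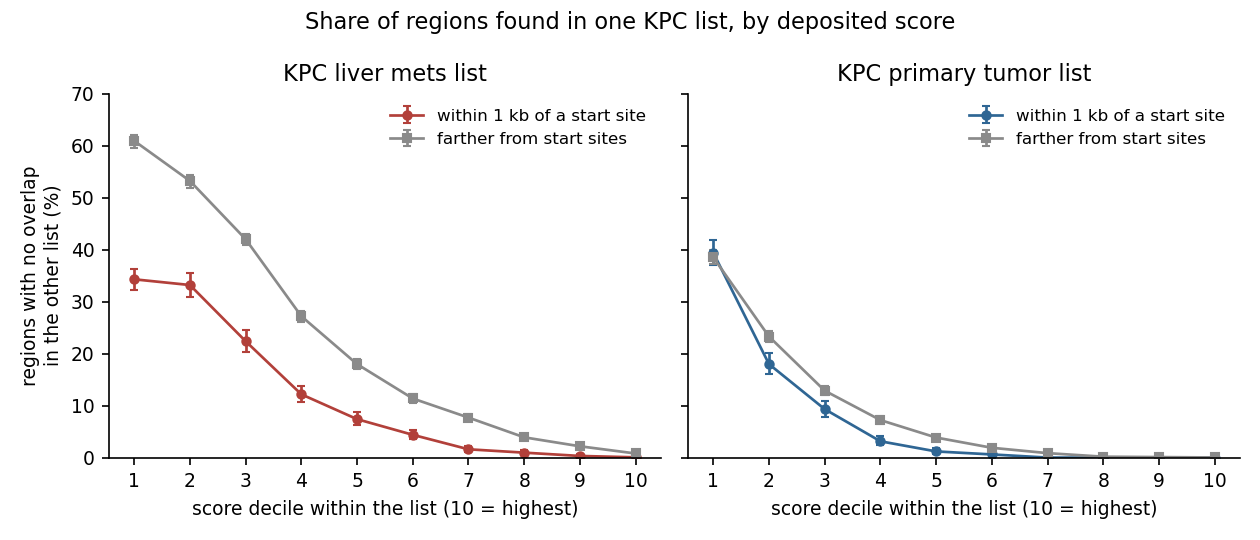
Percent of regions with no overlap in the other list (vertical axis) by score decile within the list (horizontal axis), for regions within 1 kb of a start site (colored circles) and farther away (gray squares); bars are Wilson 95% intervals. In liver mets the promoter share falls from 34.3% in decile 1 to 0.0982% in decile 10, and in primary tumor from 39.4% to 0.0393%.

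At equal score rank, promoter regions were in 1 list less often than distal regions, in liver mets from the lowest decile up and in primary tumor from the next decile up. In the lowest score decile 34.3% of liver mets promoter regions were mets-only, against 60.9% of distal regions. In primary tumor the same decile gave 39.4% and 38.5%, with overlapping intervals, and the next gave 18% against 23.3% and then 9.35% against 12.9%. In its deciles 8, 9 and 10 the intervals overlapped. In the highest decile 3 of 3055 liver mets promoter regions and 1 of 2544 primary tumor promoter regions were in 1 list. Those of Adra1b and Dclk1 were among the former, and the region in primary tumor was that of the lncRNA gene Gm29229.

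Protein-coding genes held most of the regions in both directions, but a smaller part than among shared promoters. Of the mets-only regions, 1487 (71.3%, 69.3 to 73.2) were nearest to a start site of a protein-coding gene, against 85.8% of shared regions in that list. Of the tumor-only regions, 868 (78.8%, 76.3 to 81.1) were, against 85.5%. Below score percentile 30 the shares were 73.1% against 84.3% in liver mets, and 79.6% (77 to 81.9) against 80.4% (79.1 to 81.7) in primary tumor, where the intervals overlapped. Long noncoding RNA genes (lncRNA) had 314 mets-only regions (15.0% against 8.47% of shared) and 125 tumor-only regions (11.3% against 8.51%). Pseudogenes, which are nonfunctional gene copies, had 136 mets-only regions (6.52% against 2.34%) and 36 tumor-only regions (3.27% against 2.53%). Small RNA genes had 82 mets-only regions (3.93% against 1.87%) and 51 tumor-only regions (4.63% against 1.98%). The other regions lay at transcripts not yet classified, 65 mets-only and 22 tumor-only, and at 3 immune receptor gene segments, all mets-only.

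Read the other way, 23.2% of liver mets promoter regions at pseudogenes were mets-only, as were 18.6% at small RNA genes, 16.2% (14.6 to 17.9) at lncRNA genes and 8.27% (7.88 to 8.68) at protein-coding genes. In primary tumor the shares were 7.38% (5.38 to 10.0) at pseudogenes, 12.6% at small RNA genes, 7.59% at lncRNA genes and 5.37% (5.03 to 5.73) at protein-coding genes. The step from protein-coding genes to pseudogenes was thus 8.27% to 23.2% in liver mets and 5.37% to 7.38% in primary tumor. Pseudogenes and repeated small RNA genes resemble other loci in sequence, and the treatment of reads with several matches is not given in the sources used here.

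**Figure D2:**
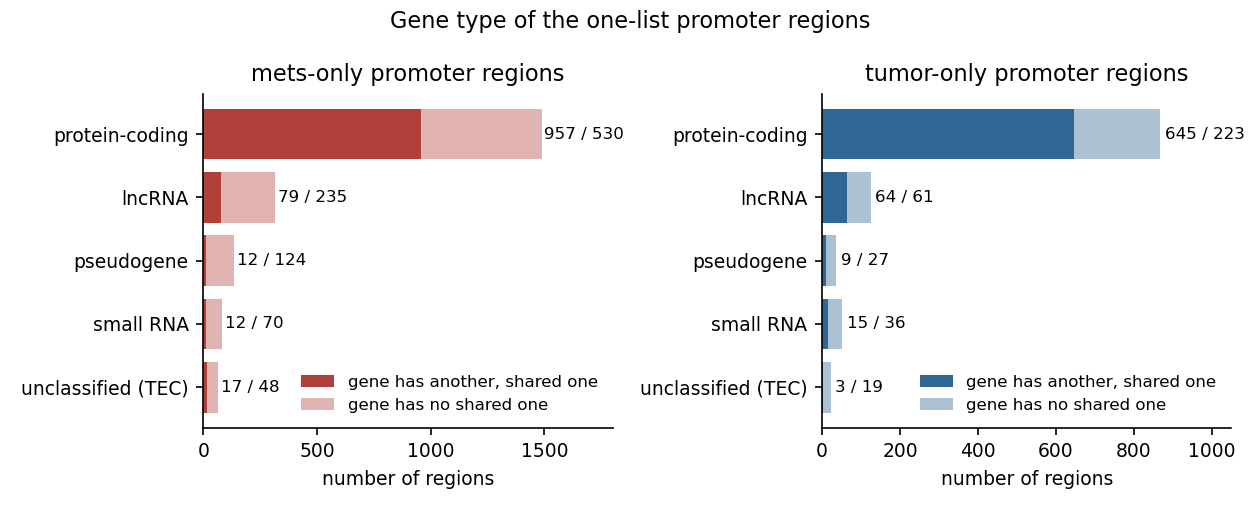
Number of mets-only (left) and tumor-only (right) promoter regions (horizontal axis) by type of the nearest gene; dark bars are regions whose gene has another promoter region that is shared, pale bars those whose gene has none, and the numbers beside each bar give both counts. Most regions at protein-coding genes fall in the dark part, 957 of 1487 and 645 of 868, while at pseudogenes 124 of 136 and 27 of 36 fall in the pale part.

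Many of these regions belonged to a gene that had a promoter open in both lines. The assigned gene had another promoter region that overlapped between the lists for 1077 mets-only regions (51.6%, 49.5 to 53.7) and 736 tumor-only regions (66.8%, 64.0 to 69.5). The mets-only share was below 50% in 6 of 12 alternative settings, with 31.3% in the upper 50% of each list by score, where the tumor-only share was 26.6%. That setting cut both lists before overlap was counted, so regions that overlapped only a weaker region of the other list were included. With a start site required inside the region the shares were 26.7% and 37%. At protein-coding genes these shares were 64.4% (957 of 1487) and 74.3% (645 of 868). At lncRNA genes they were 25.2% (79 of 314) and 51.2% (64 of 125). At small RNA genes they were 14.6% and 29.4%, and at pseudogenes 8.82% and 25%. Protein-coding genes of the regions with another shared promoter had a median of 6 annotated start sites in both directions, against 3 for genes without one, so the number of start sites moved with this split.

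Counted by gene, 12501 of 21951 protein-coding genes had a shared promoter region, 476 (2.17%) had only mets-only ones, 207 (0.943%) had only tumor-only ones, and 13 had both kinds without overlap. Another 8754 had no promoter region in either list. Of the genes with a shared region, 963 had a mets-only region in addition and 705 a tumor-only one. Both directions occurred together at 89 protein-coding genes, of which 76 also had a shared region. Among 10155 lncRNA genes, 268 had only mets-only regions and 80 only tumor-only ones.

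Regions whose gene had another, shared promoter lay at a wide range of distances from the nearest shared promoter region of the gene. Less than 500 bp from it lay 383 of the 1077 mets-only regions (35.6%) and 404 of the 736 tumor-only regions (54.9%). From 500 bp to less than 2 kb there were 268 mets-only (24.9%) and 141 tumor-only regions (19.2%). From there to less than 10000 bp there were 134 (12.4%) and 60 (8.15%). Distant regions, at least 10000 bp away, were 292 mets-only (27.1%) and 131 tumor-only ones (17.8%). Of the distant ones, 80.1% (75.2 to 84.3) of mets-only and 67.9% (59.5 to 75.3) of tumor-only regions were downstream of the shared promoter, in the direction of transcription. The median distance was 783 bp for mets-only and 402 bp for tumor-only regions.

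A start site lay inside 31.6% of mets-only regions and 35.1% of tumor-only regions, against 66.8% and 71.7% of shared promoter regions in those lists. Below score percentile 30 the gap was smaller, with 28.4% (26.2 to 30.6) against 35.7% (34.2 to 37.3) in liver mets and 34% (31.1 to 37) against 40.1% (38.5 to 41.8) in primary tumor. Where the gene had another shared promoter, the shares were 23.1% and 29.1%. Where it had none, they were 40.6% and 47.3%. For protein-coding genes without a shared promoter they reached 54.2% (49.9 to 58.3) and 61.9% (55.4 to 68.0), and 78.5% and 86.5% of those regions lay within 1 kb of a start site of a principal transcript (the isoform that APPRIS, a catalogue of main protein isoforms, ranks highest). With another shared promoter, 48.3% and 64.7% lay near a principal start site.

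**Figure D3:**
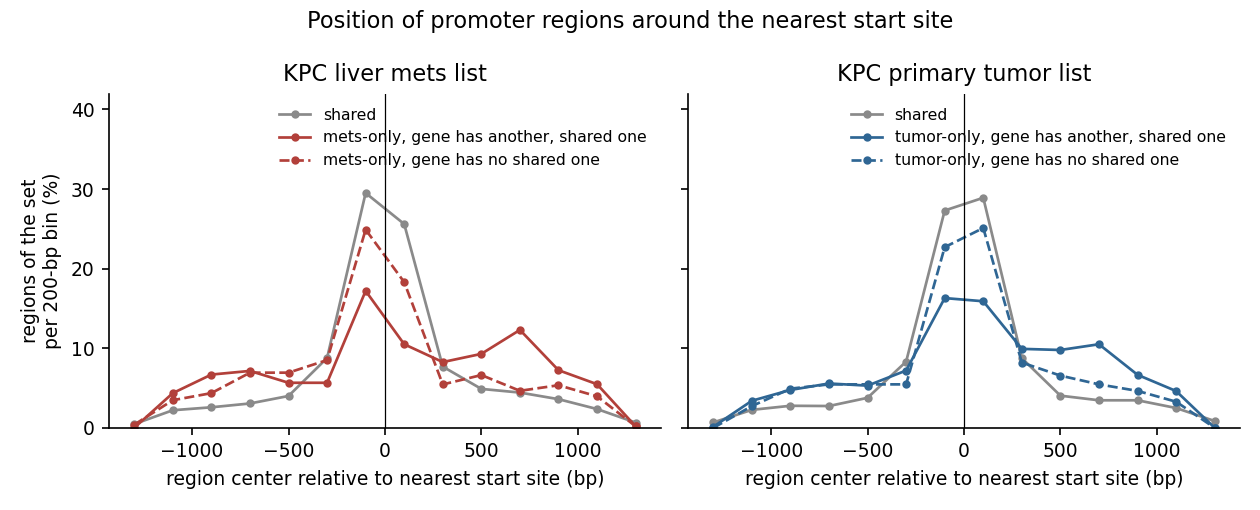
Percent of the regions in each set (vertical axis) per 200-bp bin of the distance from the region center to the nearest start site (horizontal axis, negative is upstream), for shared regions (gray), regions whose gene has another, shared promoter (solid color) and regions whose gene has none (dashed color). Shared regions and regions of genes without a shared promoter peak at the start site. In liver mets the solid line has a further rise 400 to 800 bp downstream, with 9.29% and 12.3% of mets-only regions in those 2 bins. In primary tumor the same bins hold 9.78% and 10.5%, near the 9.92% of the bin before them.

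Sequence, which the choice of regions did not use, differed between the directions. In the 200 bp at the center of each region, CpG-rich was defined as a GC content of at least 55% with an observed to expected CpG ratio of at least 0.75, and CpG-poor as a ratio below 0.48. Of mets-only promoter regions, 9.92% (8.71 to 11.3) were CpG-rich and 69.9% were CpG-poor. Of tumor-only promoter regions, 19.3% (17.1 to 21.8) were CpG-rich and 59.0% were CpG-poor. Shared promoter regions were CpG-rich in 35.7% (liver mets) and 38.0% (primary tumor). Regions far from start sites were CpG-rich in 0.280% (mets-only) and 0.597% (tumor-only).

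Because shared regions of low score are CpG-rich less often than shared regions at large, the comparison was also made below percentile 30 of the score. There, 10.5% (9.11 to 12.1) of mets-only regions were CpG-rich against 25.1% (23.7 to 26.6) of shared liver mets regions. In primary tumor the values were 19.6% (17.3 to 22.2) and 19.4% (18.1 to 20.8). Weak mets-only promoters thus lay below weak shared ones by more than the counting error, and for weak tumor-only promoters the intervals overlapped. The share near a principal start site showed the same contrast, with 44.1% against 65.7% in liver mets and 56.5% against 55.3% in primary tumor. With a start site inside the region, 18.8% of mets-only and 31.8% of tumor-only regions were CpG-rich, against 47.8% and 49.8% of shared ones.

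**Figure D4:**
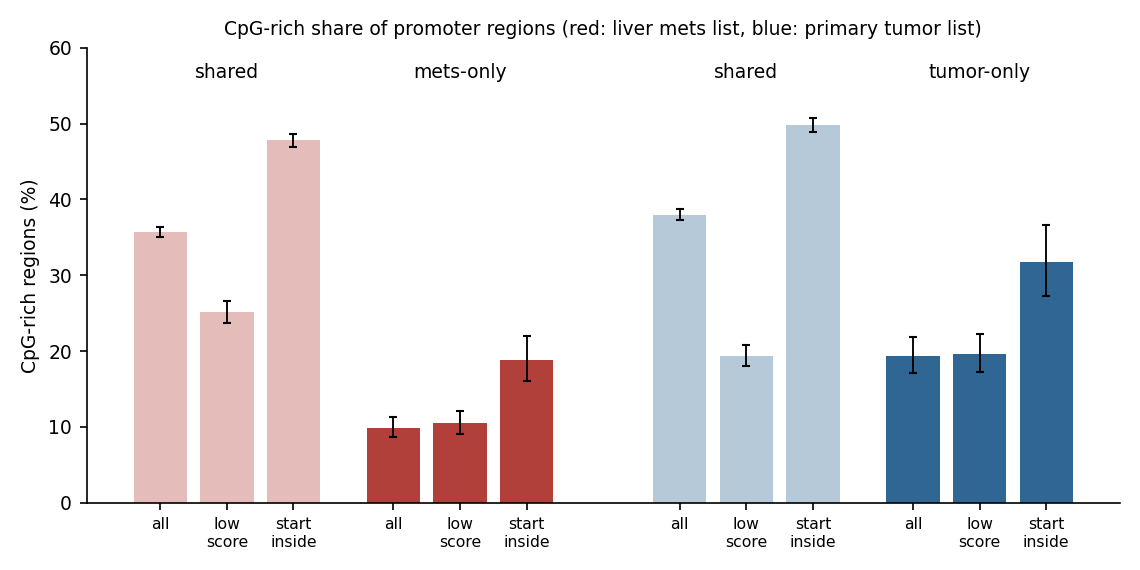
Percent of promoter regions that are CpG-rich (vertical axis; bars, with Wilson 95% intervals) among shared regions (pale) and regions in 1 list (dark) of liver mets (red) and primary tumor (blue), for all regions, for those below score percentile 30 (low score) and for those with a start site inside (start inside). Low-score bars are apart in liver mets, 25.1% and 10.5%, and level in primary tumor, 19.4% and 19.6%.

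Motif letters were counted in the same 200-bp windows, on both strands and as exact matches, within CpG classes. In CpG-poor windows AP-1 letters (TGAGTCA) occurred in 21.8% of mets-only, 21.2% of tumor-only and, in the 2 lists, 21.8% and 21.5% of shared promoter regions, so that promoters in 1 list did not stand apart. CpG-poor regions far from start sites held them in 31.4% (mets-only) and 31.8% (tumor-only). The FOXA letters (TGTTTAC), which forkhead factors of the gut and pancreas bind, were in 5.28% (4.24 to 6.55) of CpG-poor mets-only promoter regions against 3.71% (3.29 to 4.18) of shared ones. In primary tumor they were in 3.54% (2.37 to 5.25) against 3.32%. TATA letters (TATAAA) were in 9.46% (8.06 to 11.1) of CpG-poor mets-only against 6.61% (6.05 to 7.22) of shared regions, and in 6.62% of tumor-only against 7.02% of shared ones. CpG-poor regions far from start sites held FOXA letters in 5.70% (mets-only) and 4.47% (tumor-only), and TATA letters in 12.1% and 9.96%. Neither was therefore particular to mets-only promoters.

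GATA letters (AGATAAG) were in 5.08% (3.64 to 7.04) of CpG-poor tumor-only promoter regions against 2.74% (2.37 to 3.16) of shared ones, and in 2.81% of mets-only against 2.93%. RUNX letters (TGTGGTTT) were in 3.50% (2.67 to 4.57) of CpG-poor mets-only and 1.85% (1.06 to 3.20) of tumor-only promoter regions, with 2.89% and 2.95% of shared ones. CpG-poor regions far from start sites held GATA letters in 3.72% (mets-only) and 4.69% (tumor-only), and RUNX letters in 5.65% and 2.47%. The GATA share of tumor-only promoters was thus not particular to promoters. The HNF4 letters (CAAAGTCCA) were rare, in 7 of 1459 mets-only and 4 of 650 tumor-only CpG-poor promoter regions. Over all promoter regions of the liver mets list, in every CpG class, AP-1 letters were in 10.6%, FOXA in 2.46%, TATA in 4.31%, GATA in 1.60%, RUNX in 1.46% and HNF4 in 0.333%. In the primary tumor list these shares were 9.94%, 2.11%, 4.15%, 1.54%, 1.37% and 0.305%.

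Among CpG-rich regions, those in 1 list held ETS letters less often than shared ones, and SP/KLF letters about as often. ETS letters (CCGGAAGT) were in 1 of 207 CpG-rich mets-only regions (0.483%, 0.0853 to 2.69) and 2 of 213 tumor-only ones (0.939%, 0.258 to 3.36), against 5.74% and 5.23% of shared CpG-rich regions. NRF1 letters (GCGCATGC) were in 1.45% and 0.469%, against 3.55% (3.14 to 4.02) and 3.25% (2.85 to 3.70), and those of CRE (TGACGTCA) in 1 of 207 and 0 of 213, against 2.46% and 2.21%. For NRF1 and CRE the mets-only intervals, 0.494 to 4.17 and 0.0853 to 2.69, overlapped those of shared regions. SP/KLF letters (GGGCGG) were in 66.2% and 59.2%, against 62.7% and 61.9%. NF-Y letters were in 15.9% of mets-only and 8.45% (5.41 to 13) of tumor-only CpG-rich regions, against 19.8% and 17.5% (16.6 to 18.4). Over all promoter regions ETS letters were in 2.74% (liver mets) and 2.72% (primary tumor), NRF1 in 1.69% and 1.62%, CRE in 1.22% and 1.16%, and NF-Y in 22.4% and 21.2%. A match of letters is not a bound site.

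The surroundings of the 2 directions differed. A mets-only region of a gene without a shared promoter lay a median of 12091 bp from the nearest primary tumor region, and 251 of 1010 (24.9%, 22.3 to 27.6) had no primary tumor region within 50 kb. Of those 251, 161 had another liver mets region within 50 kb. For tumor-only regions of genes without a shared promoter the median distance to the liver mets list was 5932 bp, and 11 of 366 (3.01%, 1.69 to 5.30) had no liver mets region within 50 kb. The primary tumor list holds fewer regions, which can widen distances to it, and covers 40.8 Mb against 40.3 Mb. Over the whole lists, 20.2% of liver mets and 8.51% of primary tumor regions had no overlap in the other list. How many of those had no region of the other list within 50 kb was not counted. The distances were also not recomputed with lists of equal size, so they are not read as a trait of promoters. Where the gene had another shared promoter, medians were 686 bp and 438 bp, which the split itself makes small.

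The chromosomes did not contribute evenly. Chromosome 8 had the lowest share of mets-only among its promoter regions, 5.78%, and chromosome 13 the highest, 16.3%, with 15.5% on chromosome 10 and 14.0% on chromosome X. The tumor-only share was highest on chromosome 8 (9.0%) and low on chromosomes 13 (3.58%) and 14 (3.28%). Regions of the whole lists had the same lean, with 13.3% mets-only on chromosome 8 and 29.4% on chromosome 13, and 14.5% and 5.34% tumor-only. The part of DNA copy number in these shares was not tested. Neighboring regions in the same direction, less than 100 kb apart, formed 76 runs of 3 or more among mets-only regions, with 259 regions in all, and 28 runs with 95 among tumor-only regions. The mets-only run with the most members held 7 regions over 93.9 kb (chr9:110945384-111039304) at Tdgf1, Lrrc2, Gm10030 and Ltf, the last encoding the iron-binding protein lactoferrin. Another held 3 regions at C3, the central complement component, with 1 each at Trip10 and Vav1. The tumor-only run with the most members held 6 regions over 197 kb (chr4:155694706-155891969), from Fndc10 to Acap3, among 15 shared ones.

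Cell type markers were checked because another cell type could bring promoters of its own. Of 10 ductal and carcinoma markers, 9 had a shared promoter region, among them Krt19, Epcam, Cdh1 and Sox9, and Cldn4 had none in either list. The 6 leukocyte markers had none in either list. Of 6 hepatocyte markers, Apob had a shared region, Ttr a tumor-only one, and Alb, Apoa1, Cyp2e1 and Serpina1a none. Of 7 fibroblast markers, Col1a1 and Pdgfra had shared regions with a mets-only one besides, and Col1a2, Col3a1, Pdgfrb, Dcn and Lum had none. Of 5 endothelial markers, Pecam1, with a mets-only region besides, and Kdr had shared regions and the rest none, and of 6 acinar markers Cela1 alone had one.

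Among mets-only regions of protein-coding genes without any shared promoter, Adra1b, the alpha-1B adrenergic receptor, had the strongest, at percentile 93.6 (chr11:43901187-43901782, over the upstream start site), and a further mets-only region at percentile 75.6 (chr11:43836202-43837000). Both Adra1b regions had no primary tumor region within 50 kb, the nearest being 133700 bp and 68715 bp away. Kcnj2, an inward rectifier potassium channel, was at percentile 84.5 (chr11:111065655-111066484), with the nearest primary tumor region 520517 bp away. Neither gene had a primary tumor region within 50 kb of its mets-only promoters.

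Tgfbi, a secreted matrix protein that TGF-beta induces, differed from these. Its strong mets-only region, at percentile 82.3 (chr13:56626380-56626976), lay 278 bp from an internal start site, and its weak one, at percentile 0.740, covered the 5′ start site (chr13:56609257-56609600). The nearest primary tumor regions were 21561 bp and 7661 bp away. Etv1, an ETS-family transcription factor, had 3 mets-only regions at its promoter (chr12:38778543-38780433), at percentiles 76.9, 33.7 and 3.47, 729579 to 730814 bp from the nearest primary tumor region. Abcg2, a membrane efflux pump for drugs and urate, had 4, the most of any protein-coding gene, at percentiles from 16.4 to 58.7 (chr6:58583802-58641787), 159644 to 217310 bp from the nearest primary tumor region. Others among the 10 strongest were at Olfr52 (81.4), an olfactory receptor, Lrrc61 (79.9), Slc36a4 (77.5), an amino acid transporter, and Rhox2f (76.9), a reproductive homeobox gene.

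Among genes that had another, shared promoter, Dclk1 had the strongest mets-only region. Dclk1 encodes a doublecortin-like kinase known as a marker of tuft cells. The region was at percentile 92.2 and covered an internal start site (chr3:55461576-55462166), 212470 bp downstream of the nearest of 2 shared promoter regions of the gene. Ccdc33 (percentile 76.8), Git2 (75.3), Specc1l (75.2) and Ctsh (73.9), which encodes the protease cathepsin H, followed, at 16150, 9597, 17653 and 5028 bp from a shared promoter region. Those of Git2, Specc1l and Ctsh were downstream, and that of Ccdc33 upstream. Ank2, the membrane adaptor ankyrin-B, had 3 mets-only regions at percentiles 67.9, 59.1 and 23.3, which were 227790, 291796 and 596 bp upstream of its shared one. The 3 strongest lncRNA regions belonged to Gm47194 (84.7), Gm44202 (81.6) and Gm10825 (81.6).

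The tumor-only regions of protein-coding genes without a shared promoter reached lower ranks. The strongest was at Zpld1 (percentile 57.7, chr16:55298437-55298961), 451 bp upstream of the start site. Scn9a, a voltage-gated sodium channel of sensory neurons, was at percentile 50.9 (chr2:66634518-66635041), and Vwde, a protein with von Willebrand D and EGF domains, at 50.7 (chr6:13224449-13225135). Kcnn3, a calcium-activated potassium channel, was at 47.7, Dio3, the deiodinase that inactivates thyroid hormone, at 46.6, and Itga4, the integrin alpha-4 subunit, at 44.8 (chr2:79255288-79256033). Olfr370 (44.8), Rtl5 (43.4), Prokr2 (42.5), a prokineticin receptor, and Fbxo27 (41.9) completed the 10. A start site lay inside 7 of the 10 regions. The nearest liver mets region was 925 bp away at Kcnn3 and 61236 bp away at Dio3, and between these for the others.

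With another shared promoter, Add3, the cytoskeletal protein adducin-3, had the strongest tumor-only region of a protein-coding gene, at percentile 73.3 (chr19:53194022-53194880), 50917 bp downstream of its shared promoter region. Adgrl3, an adhesion G protein-coupled receptor, was at percentile 58.9 with 769279 bp, Smc1a, a cohesin subunit, at 56.5 with 40826 bp, and Ndel1, a dynein regulator, at 53.0 with 12143 bp, all downstream. Ptprn, a protein of secretory granules, was at 50.6, only 250 bp upstream of its shared region. Sema4a, a semaphorin, had 3 tumor-only regions at percentiles from 3.33 to 16.1, and Cacna1a, a neuronal calcium channel subunit, had 2 at 49.2 and 9.05, which lay 24635 and 25919 bp downstream of its nearest shared region. Of lncRNA genes, Gm29229 reached percentile 90.9, Gm49786 59.7 and Gm37529 50.8.

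At 15 genes both lists held a promoter region but the regions did not overlap, and the 5 with the highest summed percentiles are given. At Fmo1, a flavin monooxygenase, the mets-only region (percentile 37.4) and the tumor-only region (36.8) were 29261 bp apart. At Rtl5 the percentiles were 21.6 and 43.4 with 3583 bp between, at Lhx4, a LIM homeobox factor, 45.4 and 3.10 with 1380 bp, and at the lncRNA genes AC132288.1 and 4930414N06Rik 1516 and 1607 bp lay between.

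Gene lists were read against all protein-coding genes, of which 6.62% had a mets-only and 4.22% a tumor-only promoter region, counting every region within 1 kb of a start site of the gene, also where another gene's start site was nearer. Mesenchymal genes had a mets-only region at 6 of 28 and a tumor-only region at 0 of 28. The mets-only ones were at Tgfbi, Sparc (percentiles 33.8 and 23.1), a collagen-binding matrix protein, Col1a1 (15.7), Itga5 (12), the fibronectin receptor subunit, Col5a1 (11.6, nearer to 2810430I11Rik) and Zeb2 (4.32), a repressor of epithelial genes. Sparc and Tgfbi had no shared promoter region. Of the 30 liver mets promoter regions assigned to these genes, 7 were mets-only, and of their 21 primary tumor promoter regions 0 were tumor-only. Over all protein-coding genes, 8.27% of liver mets promoter regions were mets-only and 5.37% of primary tumor ones tumor-only. Apart from 1 Tgfbi region, at percentile 82.3, the mets-only regions at these genes were at percentile 33.8 or lower. Epithelial genes had a mets-only region at 6 of 28 as well. The counts in this list are too small to set the directions apart.

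Epithelial genes had mets-only regions at 6 of 28 and tumor-only regions at 4. Cldn3, a tight junction claudin, had a mets-only region at percentile 55.5 (chr5:134985728-134986316) and no shared one, and Ehf, an epithelial ETS factor, had one at 25.1 besides a shared one. Cdh3, P-cadherin, had a tumor-only region at percentile 41.9 (chr8:106510641-106511657), 1017 bp wide and over its start site, and no shared one. The tumor-only regions at Ovol1 and Ovol2, zinc finger factors of the epithelial state, were at percentiles 0.0551 and 2.51, the latter nearer to 1700108N11Rik, and neither gene had a shared one. Epithelial genes were thus found in both directions.

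Genes of adhesion and matrix proteolysis had mets-only regions at 7 of 38, among them Mmp12 (percentile 31.6), Mmp10 (16.4), both metalloproteases, Cdh17 (11.4) and Mmp13 (11). Tumor-only regions were at 3 of 38, Lamb3 (13.7), Timp3 (10.0 and 1.58), a metalloprotease inhibitor, and Mmp15 (3.24 and 0.0830). Of the 7 mets-only genes, 5 had no shared promoter region, against 1 of the 3. Over all protein-coding genes, 476 had only mets-only regions and 963 had one beside a shared region. For tumor-only regions these numbers were 207 and 705. The counts in this list are too small to set the directions apart.

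Axon guidance genes, whose ligands and receptors steer growing axons and also act in epithelia, had mets-only regions at 10 of 68 and tumor-only regions at 8. Sema4d had mets-only regions at percentiles 66.3 and 35.9, Sema6a 1 at 57, Robo1, a receptor for Slit ligands, 2 at 28 and 8.79, and Plxnb3 1 at 27.6. Tumor-only regions were at Sema3d (26.4), Unc5b (16.8), Sema4a (16.1) and Sema6d (15.1). Slit2, a ligand of Robo1, had a tumor-only region at percentile 0.394, 713 bp from a shared one.

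Lineage factors of pancreas and gut had mets-only regions at 2 of 35 (5.71%) and tumor-only regions at 3 of 35 (8.57%). Onecut1, a factor of duct and liver development, had mets-only regions at percentiles 29.7 and 17.6 (chr9:74861507-74867181) and no shared one, and Bhlha15, an acinar factor, a tumor-only region at 2.42 and no shared one. Hes1 had a region in each direction beside 2 shared ones, and Klf5 a tumor-only region at 0.717, 64 bp from its shared one. Of the AP-1, RUNX and TEAD factors, Tead1 (23.7), Junb (2.41) and Runx1 (0.959) had mets-only regions and Batf3 (13.6), Atf3 (4.02) and Runx2 (0.431) tumor-only ones, and all 6 had shared promoters. All 29 driver genes and cell-cycle inhibitors had shared promoter regions, with tumor-only ones besides at Gnas (40.7), Arid1b (6.87) and Erbb2 (1.17).

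The signaling lists had small counts. Wnt genes had mets-only regions at 5 of 52, led by Fzd3 (24.8), a receptor, and tumor-only regions at 3, led by Wnt4 (33.5). TGF-beta and BMP genes had 5 and 4 of 54, led by Tgfbr3 (53.1), the receptor betaglycan, and by Bmp8a (33.7). Interferon-stimulated and antigen presentation genes had 4 and 2 of 37, with Usp18 (52.4), Oas3 (48.9) and Ifit1 (37.0) mets-only and Ifit3 (8.16) and Stat2 (5.83) tumor-only. Secreted chemokines and interleukins had 3 and 2 of 37, led by Ccl9 (41.3) and Ccl25 (13.7, nearer to Elavl1). Imprinted genes, of which only the copy from a given parent is expressed, had 6 and 6 of 42, led by Igf2r (26.9) and by Gnas (40.7). Germline genes had 1, Hormad2 (22.4), and 0 of 40.

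**Figure D5:**
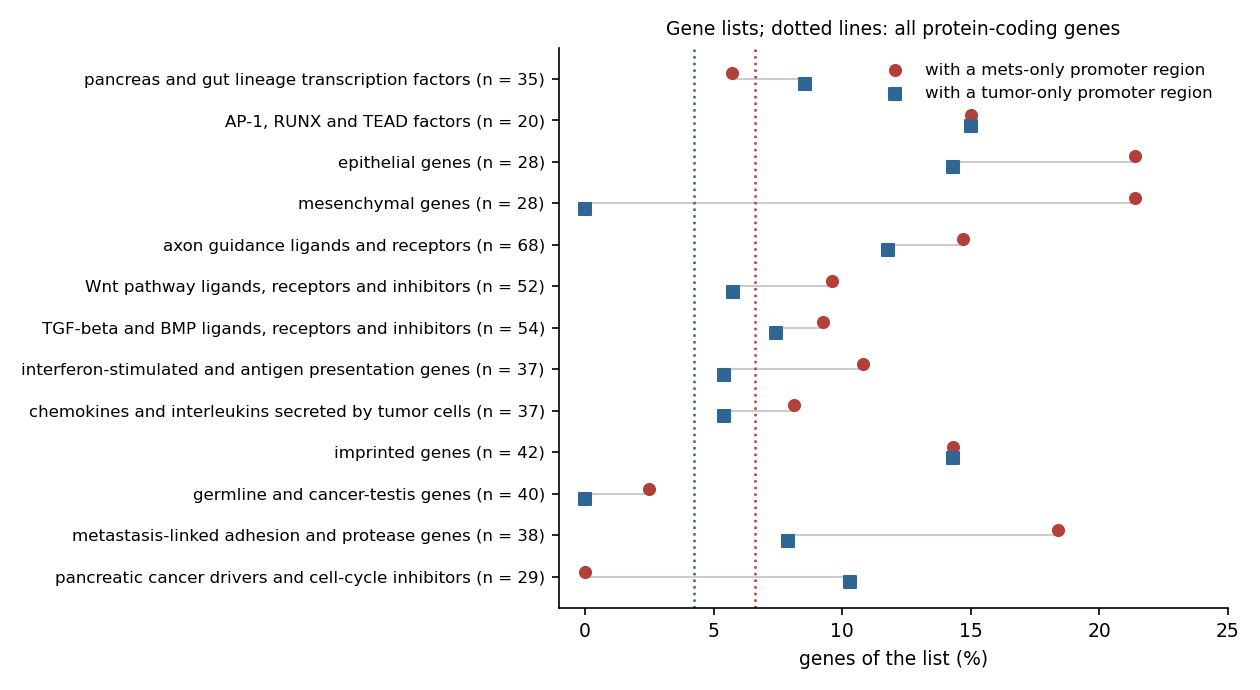
Percent of the genes in each of 13 lists (horizontal axis; n is the number of genes) that have a mets-only (red circles) or a tumor-only (blue squares) promoter region, with dotted lines at the share among all protein-coding genes, 6.62% and 4.22%. Mesenchymal genes lie at 21.4% and 0%, and epithelial genes at 21.4% and 14.3%. Each list holds few genes, so 1 gene moves a point by several percent, and the lists differ in how many genes have any promoter region.

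Regions near the limits of the choice resembled each other. In the last 50 bp inside the 1 kb distance there were 82 mets-only and 25 tumor-only regions, with median percentiles of 16.4 and 11. In the first 50 bp outside there were 48 and 21 regions in 1 list, with 15.2 and 11.6. At the overlap limit, 16 mets-only and 7 tumor-only promoter regions had a gap under 50 bp to the other list, with median percentiles of 4.40 and 1.95. Another 12 and 4 regions overlapped the other list by at most 50 bp and so counted as shared, with 3.03 and 0.386.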

How the data were processed

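ATAC-seq was performed by the authors on 16 samples. The ATAC-seq methods name the Omni-ATAC protocol and paired-end reads for HPAF-II, a human line; the submitters' processing notes list Bowtie2 2.2.6, MACS2 2.1.1.20160309, DiffBind and mm10. The threshold, read shift and handling of replicates are not given for ATAC-seq in the sources used here; for ChIP-seq of the same study, alignments of replicates were pooled before peaks were called against input, and whether this held here is not given. The deposited values are a score per region in BED lists, 1 per group; the scale of the score is not stated, so only ranks within a list were used (0 to 100). Coordinates are 1-based.

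Start sites of all 55450 genes came from GENCODE vM21. A region was assigned to the gene of its nearest start site, with ties to protein-coding, then lncRNA genes. A gene kept another shared promoter when a further region of the same list within 1 kb of any of its start sites overlapped the other list. Sequence came from RefSeq GRCm38.p6 (mm10), by coordinates. The code was tested on simulated regions. No test was run, since there is 1 list per group and regions are not replicates. Percentages have Wilson 95% intervals (SciPy).

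The regions, gene lists and motifs were chosen with earlier results of these data known. Named genes are, in each direction and by score, the 10 strongest regions of protein-coding genes without a shared promoter, the 5 strongest with one, 3 lncRNA regions, the 3 genes with the most regions, up to 5 genes in both lists without overlap, and up to 4 per gene list; unnamed predicted genes were passed over. Where a short list is named in full, and for single genes set beside a partner, genes outside this rule were named after their values were seen. No sequence from chromosome 18 is printed. A gene that this rule names is not reported here.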

Additional observations from a re-analysis of the deposited data

How the results depend on the processing

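No paired analysis was possible because each group is represented by 1 list, and for the same reason no replicate could be left out. Of 118 recomputed values over 12 alternatives, 25 of 48 main counts and shares stayed within 1.5 times or within the interval of the value reported. Of the other values, 24 stayed within the interval and 46 moved out of it. Those others are the shares in 1 list, at protein-coding genes and CpG-rich. Among the 12 is the setting that left out regions narrower than 150 bp. It removed no region and repeated every main value, so it adds nothing to these counts. The mets-only share of promoter regions exceeded the tumor-only share in 11 alternatives, that setting included. It fell below the tumor-only share with lists of equal size, which gave 1052 mets-only and 2362 tumor-only regions. The share with another shared promoter was lower for mets-only than for tumor-only regions in 11 alternatives and not in the upper 50% of each list by score.

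The mets-only share with another shared promoter became 42.9% with lists of equal size, 38.8% with regions within 500 bp counted as shared, 31.3% in the upper 50% of the lists, 41.1% at a 500 bp promoter distance, 56.3% at 2 kb, 26.7% with a start site inside, 57.3% with protein-coding transcripts only and 38.3% with basic transcripts only. The tumor-only share became 61.1% with 50% coverage required, 49.3% with regions within 500 bp counted as shared, 26.6% in the upper 50%, 58.0% at 500 bp, 70.4% at 2 kb, 37.0% with a start site inside and 57.5% with basic transcripts. Mets-only regions numbered 3151 at 2 kb, 659 with a start site inside and 1184 with protein-coding transcripts. Tumor-only regions numbered 692 with regions within 500 bp counted as shared, 552 in the upper 50% and 387 with a start site inside. The upper 50% setting cut both lists first, so its regions include those that overlapped only a weaker region of the other list. In the main setting, 15 tumor-only and 162 mets-only regions scored above the middle of their list. No region was narrower than 150 bp. Sequencing depth per list is unknown and limits all counts of weak regions.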

Other observations

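Gene families outside the lists above were counted in the same way. Over all protein-coding genes, 6.62% had a mets-only and 4.22% a tumor-only promoter region. Collagen genes, by symbols that start with Col, had mets-only promoter regions at 10 of 45 and tumor-only ones at 4, led by Col27a1 (percentile 52.1), Col12a1 (32.3) and Col16a1 (32.1) among the mets-only ones. The symbol rule also took in Col4a3bp, which encodes a ceramide transporter and no collagen. Ion channel genes had 10 (6.02%) and 12 (7.23%) of 166, led by Kcnj2 (84.5) and Scn9a (50.9). Of 61 serine protease inhibitor genes, 4 (6.56%) had mets-only regions, near the share over all protein-coding genes, and 0 had tumor-only ones. The strongest of these, at Serpinb8 (percentile 75.5), lay 687976 bp from the nearest primary tumor region. Cadherins and protocadherins had 7 (7.69%) and 3 (3.30%) of 91, also near the shares over all protein-coding genes.

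Large families differed in how many members had any promoter region. Of 1134 olfactory receptor genes, 97.9% had no promoter region, 7 had a mets-only and 3 a tumor-only region. Of 394 C2H2 zinc finger genes named Zfp, 314 had a shared promoter region, and 21 and 11 had a mets-only or tumor-only one. Of 39 Hox genes, 94.9% had no promoter region, and Hoxa10 had a mets-only one. Ribosomal protein genes had a shared promoter at 77 of 80. The genes named in these 2 paragraphs were chosen after their values were seen.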
